A study of Mus musculus with 6 samples.

Results

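Described here are 40 mouse genes of DNA replication and S phase, from the loaders of the replicative helicase to the polymerases, the sliding clamp and the regulators of S-phase entry, in CD4+CD8+ thymocytes with and without the microRNA genes mir181a1 and mir181b1. The members were taken by symbol from the deposited gene table, which holds 37867 gene models. It listed 37 of the 40 under the symbol given, each with 1 model, and all 37 had been tested by the authors. Cdc45, Orc1 and Orc2 stood in the table under the older symbols Cdc45l, Orc1l and Orc2l, and their values are given apart from the counts over the 37.

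RNA was sequenced from 6 libraries of thymocytes of strain C57bl6, 3 from mir181a1/b1 knockout mice and 3 from wild type mice. No treatment is labelled for either genotype, and the cells of both were sorted for CD4 and CD8 together, to over 95% purity. The sources used here do not give age, sex, the number of mice behind a library or the cells in which the deletion acts, so replicates may be technical. The table gives 1 FPKM value (fragments per kilobase of transcript, scaled to library size) per genotype and the authors' test of the difference between genotypes, and no value of a single library was used here.

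A cell licenses its replication origins in G1, when the origin recognition complex, Cdc6 and Cdt1 load the MCM ring onto DNA. In S phase Cdc45 and the GINS complex turn that ring into the active helicase, and primase, the polymerases, the PCNA clamp and its loader copy both strands, while E2F factors drive transcription of most of these genes. In the thymus, cells that have rearranged the T cell receptor beta chain divide rapidly as they become CD4+CD8+, and then leave the cell cycle as small resting cells, so transcripts of replication genes mark the dividing fraction of this population. The microRNAs made from the 2 genes removed in the knockout share their seed, the bases that pair with a target. Their mature sequences follow because the seed defines the target sites counted among the members; capitals mark bases 2 to 8, and positions are on chromosome 1 of GRCm38.p6, plus strand, from RefSeq.
miR-181a-5p, chr1:137966468-137966490: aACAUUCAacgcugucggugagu
miR-181b-5p, chr1:137966650-137966673: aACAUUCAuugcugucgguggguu

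Transcripts of the helicase ring, origin licensing, the sliding clamp, polymerase delta (Pold1 and Pold2) and Okazaki fragment joining were among those that fell in the knockout. No transcript of the single-strand binding or primase groups passed the test. Of the 37 members, 11 fell, none rose and 26 did not pass the test, where a call means a q-value under 0.05 in the authors' deposited table. The same threshold called 15.3% of all tested models lower and 1.79% higher, against 29.7% of the members called lower. Of the 11 members that fell, 10 had transcripts over 50% GC, where 36.7% of coding genes were called lower. With the trend of the ratio with GC content and length removed, 2 of the 11 calls were left, Pcna and Mcm5, and none in licensing, polymerase delta or Okazaki fragment joining. With a trend on GC content alone, 1 call was left, Pcna. Among tested models averaging at least 1 FPKM, as every member did, 17.2% were called lower. At an unadjusted p under 0.05 in the authors' deposited table, 15 members were lower and 0 higher. The members that fell were Pold1, Cdt1, Pold2, E2f1, Pcna, Mcm5, Mcm2, Fen1, Mcm7, Mcm3 and Rfc2, in order from the largest change, and Cdc45 fell as well under its older symbol.

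The knockout value was below wild type for 36 of the 37 members, against 59.6% of all tested models, and Pola1 was the exception. The median log2 ratio of knockout over wild type was -0.55 over the members, a level 1.46-fold higher in wild type, beside -0.17 over all tested models. Since that general shift is 0.17, ratios were also centred on the median of all tested models. After centring, 29 members had a negative ratio and 8 a positive one, which is relative to that median and not to wild type. In that setting 9 members were called lower, against 10.8% of all tested models. The FPKM values of the members summed to 759 in the knockout and 1167 in wild type. The knockout sum was thus 65.1% of wild type, where the sum over the whole table was 82.4%. As a share of all FPKM in the table, the members made up 0.255% in the knockout and 0.324% in wild type. These sums keep the trend of the ratio with GC content and length, and whether that trend comes from the cells or from the libraries was not tested. In these sorted populations, fewer replicating cells and less replication RNA per cell cannot be told apart either.

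**Figure D1:**
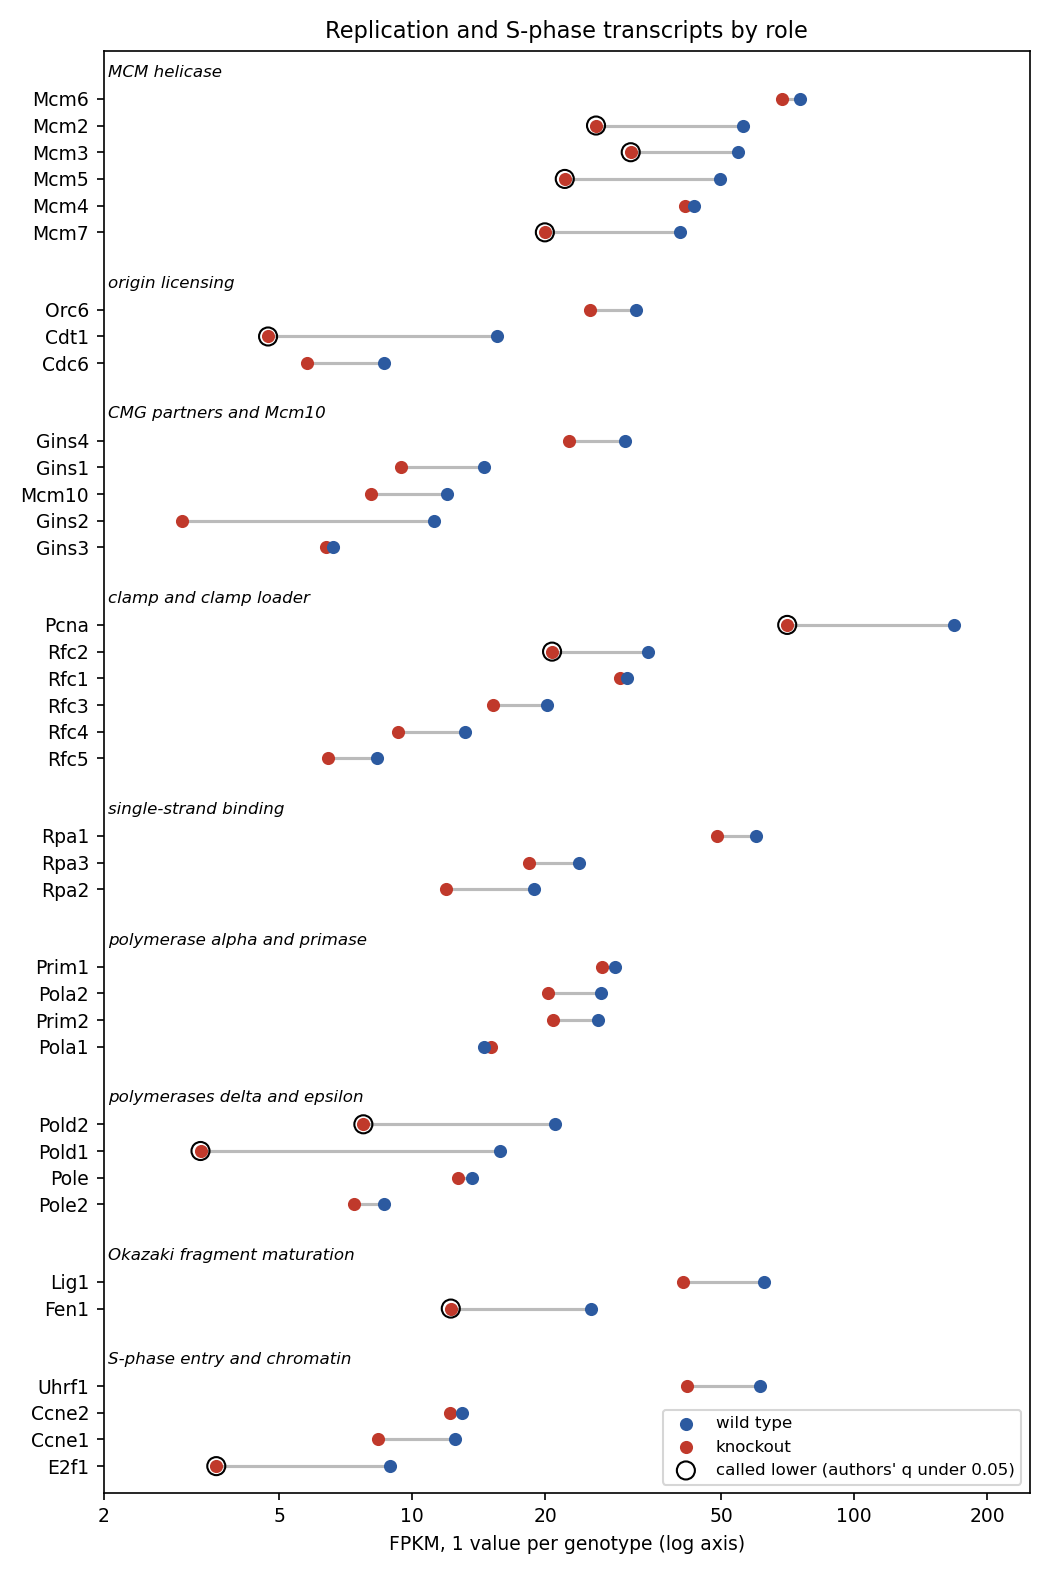
Level of each of the 37 members in FPKM (horizontal log axis), 1 point per genotype, grouped by role and ordered by the wild type level; a ring marks the 11 members called lower. The knockout point lies to the left of wild type in every row except Pola1, with the longest gaps at Pold1, Gins2 and Cdt1.

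The MCM2-7 ring, the motor of the replicative helicase, is built from 1 copy of each of 6 subunits, and 4 of the 6 transcripts fell. In wild type their levels lay within a 1.87-fold range, from 40.4 FPKM for Mcm7 to 75.4 for Mcm6. In the knockout the range was 3.44-fold, from 19.96 to 68.7 FPKM for the same 2 genes. In the knockout Mcm6 and Mcm4 were at 91.1% and 95.3% of wild type and the other subunits at 44.4% to 57.1% of it. The subunits that fell had transcripts over 50% GC, where 36.7% of coding genes were called lower. Mcm6 and Mcm4 had less, where 1.98% were called lower. With the trend of the ratio with GC content and length removed, the Mcm5 call alone was left in the ring. The difference between subunits was not tested.
Mcm5 (chr8:77633427-77652338 in mm9, as are all gene model positions here) was at 22.1 FPKM in the knockout and 49.8 in wild type, a log2 ratio of -1.17 with a standard error of 0.25. That standard error is the size of the authors' log2 ratio divided by their test statistic. Mcm2 (chr6:88833469-88848691) was at 26.1 and 56.1 FPKM, a log2 ratio of -1.11 ± 0.24 (standard error). For Mcm7 (chr5:138605817-138613090) the levels were 19.96 and 40.4 FPKM and the log2 ratio -1.02 ± 0.25. These 3 subunits stood at or below 49.4% of wild type. Mcm3 (chr1:20793093-20810294) had 31.2 FPKM in the knockout and 54.7 in wild type, a log2 ratio of -0.81 ± 0.24, and its adjusted p after centring was 0.0501, which ends the call. The authors' deposited table gave q = 7.78e-05 for Mcm5, 1.02e-04 for Mcm2, 8.33e-04 for Mcm7 and 0.00730 for Mcm3.
Mcm6 was the most abundant subunit in both genotypes, at 68.7 FPKM in the knockout and 75.4 in wild type. Its log2 ratio was -0.13, with a 95% interval from -0.60 to 0.33. Mcm4 had 41.5 and 43.5 FPKM, with a log2 ratio of -0.07 and an interval from -0.52 to 0.38. After centring, the ratios of Mcm6 and Mcm4 were 0.03 and 0.10. The authors' deposited table gave q = 0.808 for Mcm6 and 0.922 for Mcm4.

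Promoters of several MCM genes carry E2F binding letters, among genes that fell and genes that did not pass the test. The stretches below lie upstream of the annotated start sites of Mcm5 and Mcm7, which fell, and of Mcm6 and Pola1, which did not pass the test. They are shown to set the same kind of element beside both outcomes. Sequences are from RefSeq, build GRCm38.p6, read 5′ to 3′ on the gene's strand, and capitals mark matches to the letters TTTCCCGC, TTTGGCGC, TTTCGCGC or TTTGCCGC on either strand, including overlapping ones.
Mcm5, chr8:75109341-75109382, plus strand: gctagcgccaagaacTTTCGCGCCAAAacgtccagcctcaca
Mcm7, chr5:138172026-138172063, minus strand: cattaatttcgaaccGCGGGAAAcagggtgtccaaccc
Mcm6, chr1:128359730-128359830, minus strand: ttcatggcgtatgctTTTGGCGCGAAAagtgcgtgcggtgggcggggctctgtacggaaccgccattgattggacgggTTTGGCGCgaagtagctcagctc
Pola1, chrX:93632271-93632308, minus strand: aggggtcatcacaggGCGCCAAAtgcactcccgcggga
The Mcm5 stretch holds 2 matches that overlap, and the Mcm6 stretch holds 3, of which 2 overlap.

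A promoter window of 300 bases, 250 before the start site and 50 after it, was matched for 32 of the 40 members. Of these, 14 (43.8%) held at least 1 of the E2F letters, against 2.26% of the 32851 windows of all genes and 4.99% of the 6759 tested genes with a window. The letters stood in 5 of the 11 called members with a window, Cdc45 included, namely Mcm3, Mcm5, Mcm7, Cdt1 and Pold1. They also stood in 9 of the 21 other members, among them Mcm6, Cdc6, Lig1 and Uhrf1. The CCAAT box, searched as CCAAT on both strands, was in 21 members (65.6%), in 37.4% of all windows and in 43.7% of the tested genes. CHR, an element of mitotic promoters searched as TTTGAA on both strands, was in 5 members (15.6%), in 17.9% of all windows and in 14.1% of the tested genes. The CHR letters stood in 4 of the 11 called members and 1 of the 21 others, a difference that was not tested. A match describes letters in a window and not binding. Gins1, Gins2, Gins4, Mcm4, Prim2, Ccne2, Rfc2 and Pole had no window in the table.

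**Figure D2:**
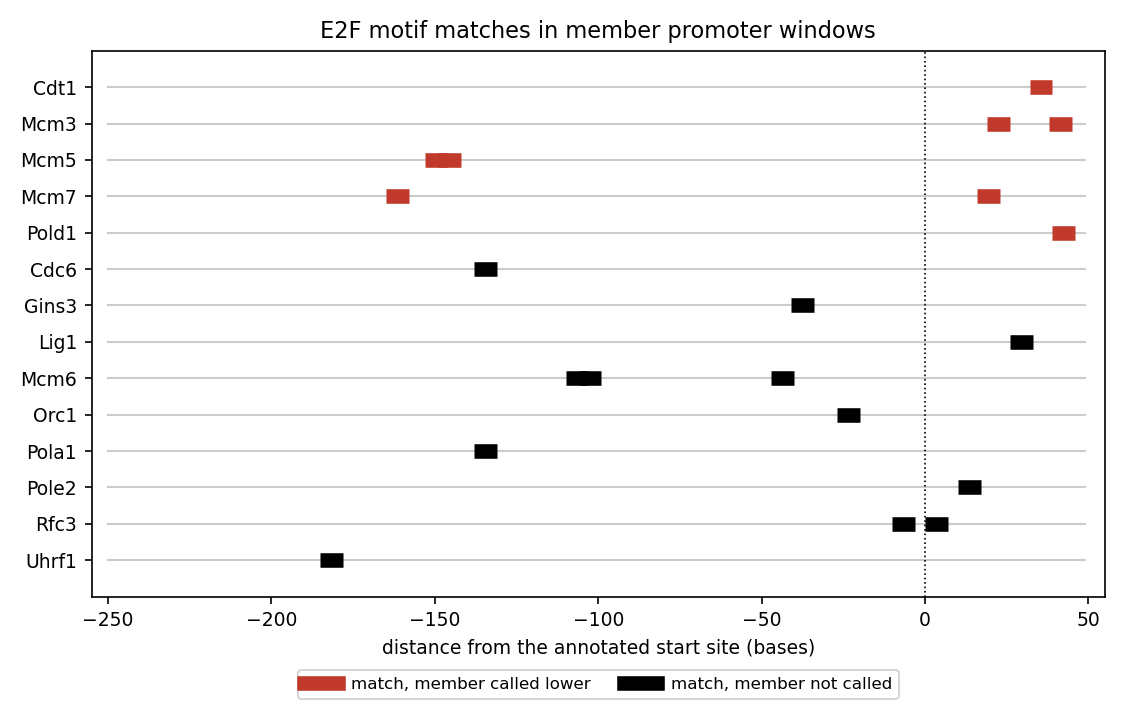
Positions of E2F letter matches in the promoter windows of the 14 members that hold any, in bases from the annotated start site (dotted line); red marks members called lower, counting Cdt1, Mcm3, Mcm5, Mcm7 and Pold1, and black marks members not called. Matches lie on both sides of the start site in both classes.

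Of the licensing factors, Cdt1 was the member that fell. Cdt1, which brings the MCM ring to the origin and is destroyed once S phase starts, was at 4.71 FPKM in the knockout and 15.5 in wild type (chr8:125091915-125097030). Its log2 ratio was -1.72 ± 0.33, and the authors' deposited table gave q = 1.12e-05. Cdc6, the ATPase that works with Cdt1, was at 5.78 and 8.61 FPKM, with a log2 ratio of -0.57 and a 95% interval from -1.13 to -0.02. Orc6, a subunit of the origin recognition complex and the highest of the licensing transcripts, was at 25.2 and 32.1 FPKM, a log2 ratio of -0.35. With the trend on GC content and length taken out, the log2 ratios were -0.53 for Cdt1, -0.48 for Cdc6 and -0.24 for Orc6, with no call. As deposited, Cdc6 and Orc6 did not pass the test (q = 0.163 and 0.510 in the authors' deposited table). Orc1 was at 2.74 FPKM in the knockout and 3.30 in wild type. Orc2 was at 14.1 and 12.9 FPKM, and its model spans 155245 bases, 3.67 times the RefSeq gene, and overlaps Nif3l1 and Ppil3. Neither passed the test (q = 0.742 and 0.901 in the authors' deposited table).

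None of the 4 GINS genes passed the test. Gins4, the highest of them, was at 22.7 FPKM in the knockout and 30.3 in wild type, a log2 ratio of -0.42. Gins1 was at 9.43 and 14.5 FPKM, with a log2 ratio of -0.62 and a 95% interval from -1.22 to -0.02. Gins3 was at 6.38 and 6.60 FPKM, a log2 ratio of -0.05 that became 0.12 after centring. Their q-values in the authors' deposited table were 0.328 for Gins4, 0.161 for Gins1 and 0.964 for Gins3. Gins2 had the second-largest ratio of all members, -1.89 from 3.01 FPKM in the knockout and 11.2 in wild type, but with a standard error of 1.89 its interval ran from -5.61 to 1.82. The Gins2 model spans 100210 bases, 12.8 times the RefSeq gene, and overlaps Gse1, so its reads may not all be from Gins2 (q = 0.596 in the authors' deposited table). Mcm10, which helps to start the assembled helicase, was at 8.06 and 11.95 FPKM with q = 0.347 in the authors' deposited table. Cdc45, the remaining partner of MCM and GINS in the helicase, fell from 26.9 FPKM in wild type to 14.8 in the knockout (chr16:18780545-18812065). Its log2 ratio was -0.87 ± 0.29, and the authors' deposited table gave q = 0.0208. The call was lost after centring, with an adjusted p of 0.0850.

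Pcna, the ring that holds polymerases on DNA, was the most abundant member in both genotypes and had the largest change in FPKM. It was at 70.6 FPKM in the knockout and 168 in wild type (chr2:132075022-132078916). The log2 ratio was -1.25 ± 0.24, a level 2.38-fold higher in wild type, and the authors' deposited table gave q = 8.59e-06. Among all tested models, ordered by level, Pcna stood at place 260 in wild type and 725 in the knockout. Mouse gene names list 2 Pcna pseudogenes, and the sources used here do not say how reads matching several places were counted.
Of the 5 subunits of replication factor C, which loads the clamp, only Rfc2 passed the test. Rfc2 (chr5:135058560-135074198) was at 20.7 FPKM in the knockout and 34.2 in wild type, a log2 ratio of -0.72 ± 0.27 with q = 0.0408 in the authors' deposited table. The call was lost after centring, with an adjusted p of 0.152. Rfc1, the large subunit, was at 29.5 and 30.6 FPKM, a log2 ratio of -0.05 that became 0.11 after centring. Rfc3 was at 15.3 and 20.2 FPKM, Rfc4 at 9.30 and 13.1, and Rfc5 at 6.45 and 8.30. Their log2 ratios lay between -0.50 and -0.36, and every interval among Rfc1, Rfc3, Rfc4 and Rfc5 included 0. In the authors' deposited table q was 0.954 for Rfc1, 0.499 for Rfc3, 0.335 for Rfc4 and 0.591 for Rfc5.

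The 3 subunits of replication protein A, which coats single-stranded DNA, summed to 77.3% of wild type, and none passed the test. Rpa1, the DNA-binding subunit, was at 49.004 FPKM in the knockout and 59.9 in wild type, a log2 ratio of -0.29. Rpa2 was at 11.9 and 18.9 FPKM, a log2 ratio of -0.66 with a 95% interval from -1.24 to -0.09. Rpa3 was at 18.4 and 23.8 FPKM. The authors' deposited table gave q = 0.477 for Rpa1, 0.110 for Rpa2 and 0.495 for Rpa3.

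Polymerase alpha and primase, which lay down the RNA-DNA primers, kept the highest share of wild type of any role group, 86.2% of the summed level, with no call. Their transcripts also had the lowest median GC content of any role group, 46.1%. With the trend on GC content and length removed, the group's median log2 ratio was -0.16, beside -0.21 for polymerases delta and epsilon. Pola1, the catalytic subunit, was at 15.1 FPKM in the knockout and 14.5 in wild type. Its log2 ratio of 0.06 had an interval from -0.42 to 0.54. Pola2 was at 20.3 and 26.8 FPKM, and Prim2, the large primase subunit, at 20.8 and 26.3. Prim1, the catalytic primase subunit and the highest in this group, was at 26.9 and 28.8 FPKM, a log2 ratio of -0.10 that became 0.07 after centring; its model overlaps Naca and is 2.94 times as long as the RefSeq gene. The 4 genes had q-values of 0.942, 0.392, 0.455 and 0.928 in that order in the authors' deposited table.

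The polymerases that extend the primers had the lowest summed level relative to wild type of any role group, 52.6%. Their transcripts had the highest median GC content of any role group, 54.7%. With the trend on GC content and length removed, the group's median log2 ratio was -0.21, and origin licensing had the lowest, -0.48. The group held the delta subunits Pold1 and Pold2, which fell, and the epsilon subunits Pole and Pole2, which did not pass the test. The difference between the delta and epsilon genes was not tested. No call in the group was left once the trend with GC content and length was removed. Pold3, Pold4, Pole3 and Pole4, further subunits of these polymerases, were listed apart from the members, and none passed the test. Their log2 ratios were 0.11, -0.86, -0.62 and -0.20 in that order. Their q-values in the authors' deposited table were 0.874, 0.137, 0.333 and 0.811. Pold1, the catalytic subunit of polymerase delta, which copies the lagging strand, had the largest ratio of all members. It was at 3.31 FPKM in the knockout and 15.8 in wild type (chr7:51788119-51804186), a log2 ratio of -2.25 ± 0.30 and a level 4.76-fold higher in wild type. Its place among all tested models went from 4845 in wild type to 8874 in the knockout. Pold2, an accessory subunit, was at 7.75 and 21.1 FPKM (chr11:5772191-5778220), a log2 ratio of -1.44 ± 0.30. For these 2 genes the authors' deposited table gave q = 4.18e-11 and 4.36e-05.
Pole, the catalytic subunit of the leading-strand polymerase epsilon, was at 12.7 FPKM in the knockout and 13.7 in wild type. With a standard error of 0.52, its log2 ratio of -0.11 had an interval from -1.12 to 0.90, and it became 0.06 after centring. Pole2 was at 7.39 and 8.63 FPKM, a log2 ratio of -0.22 with an interval from -0.81 to 0.36. The authors' deposited table gave q = 0.950 for Pole and 0.722 for Pole2. With the trend removed, the log2 ratios were -0.91 for Pold1, -0.18 for Pold2, 0.01 for Pole and -0.23 for Pole2.

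Of the enzymes that join Okazaki fragments, the flap nuclease Fen1 fell and the ligase Lig1 did not pass the test. Fen1 (chr19:10273629-10278433) was at 12.2 FPKM in the knockout and 25.4 in wild type, a log2 ratio of -1.06 ± 0.30. Lig1 was at 41.0 and 62.6 FPKM, a log2 ratio of -0.61 with an interval from -1.31 to 0.09. In the authors' deposited table q was 0.00549 for Fen1 and 0.266 for Lig1.
Among the regulators of S-phase entry, E2f1, an activating member of the E2F family, was at 3.60 FPKM in the knockout and 8.89 in wild type (chr2:154385375-154395588). Its log2 ratio was -1.30 ± 0.39, with q = 0.00751 in the authors' deposited table. Ccne1 and Ccne2 encode cyclin E, the partner of Cdk2 at the start of S phase. Ccne1 was at 8.38 and 12.5 FPKM, a log2 ratio of -0.58, and Ccne2 at 12.2 and 12.9 FPKM, a log2 ratio of -0.09 that became 0.08 after centring. Uhrf1, which carries DNA methylation through replication, was at 41.8 and 61.1 FPKM, a log2 ratio of -0.55 with an interval from -1.03 to -0.07. The authors' deposited table gave q = 0.233 for Ccne1, 0.945 for Ccne2 and 0.108 for Uhrf1, which was the smallest q among members not called. The Ccne1 model is 2.34 times as long as the RefSeq gene and overlaps linc-Ccne1-AS, and the Ccne2 model is 4.38 times as long as the RefSeq gene and overlaps Ints8.

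**Figure D3:**
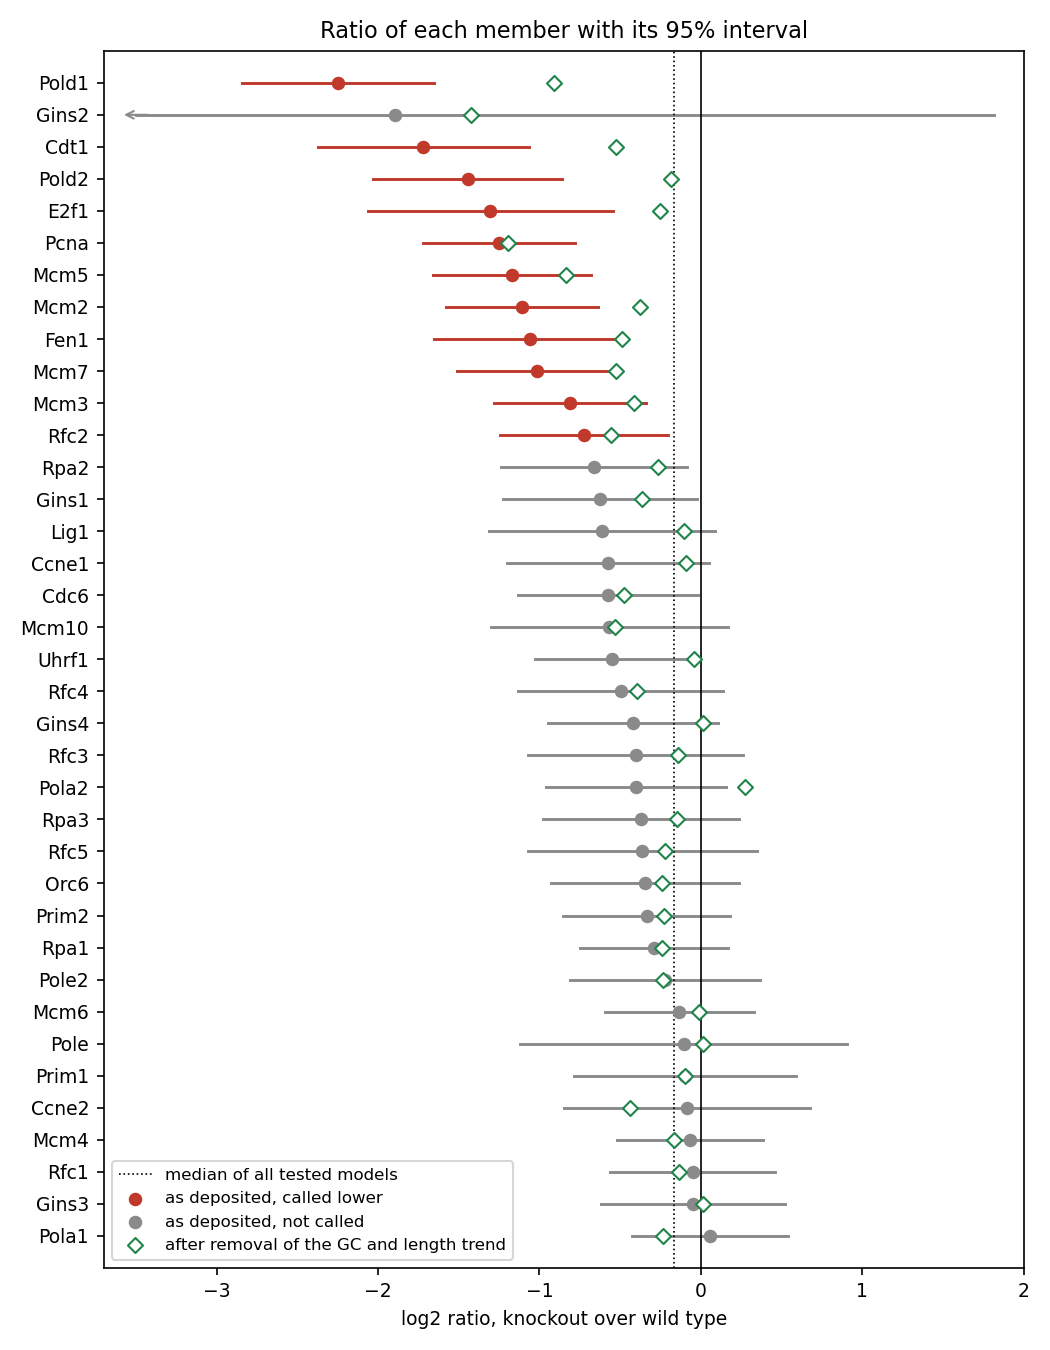
Log2 ratio of knockout over wild type for each of the 37 members with its 95% interval (horizontal axis), red for members called lower and grey for the rest; open diamonds give the ratio after the trend with GC content and length was removed, and the dotted line is the median of all tested models, -0.17. All 11 red intervals lie below 0, and most of the red points lie far from their diamonds, Pcna being the clearest exception.

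The ratio of a member moved with the base composition of its transcript. The 11 members that fell had a median GC content of 53.8% (45.3% to 60.7%), and the other members 48.4% (36.3% to 54.7%). Across the 37 members, the Spearman correlation of log2 ratio and GC content was -0.71, and across 8987 coding genes averaging at least 1 FPKM it was -0.76. These are correlations across genes of the same libraries, and genes are not independent replicates. In the whole table, 36.7% of the 4495 coding genes over 50% GC were called lower, against 1.98% of the 4492 with less. Of the 18 members over 50% GC, 10 were called, and of the 19 at or below 50% GC, only Pcna.
The members lay below other coding genes on both sides of that division. Over 50% GC, the median log2 ratio was -0.91 for members and -0.71 for coding genes. At or below 50% GC it was -0.34 for members and 0.09 for coding genes. Within the MCM ring the GC contents were 45.5% for Mcm4 and 49.1% for Mcm6, which did not pass the test, and from 51.9% (Mcm5) to 55.5% (Mcm2) for the subunits that fell. Pold1 and Pold2 had 60.7% and 58.7% GC, and Pole and Pole2 had 50.6% and 44.7%.

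**Figure D4:**
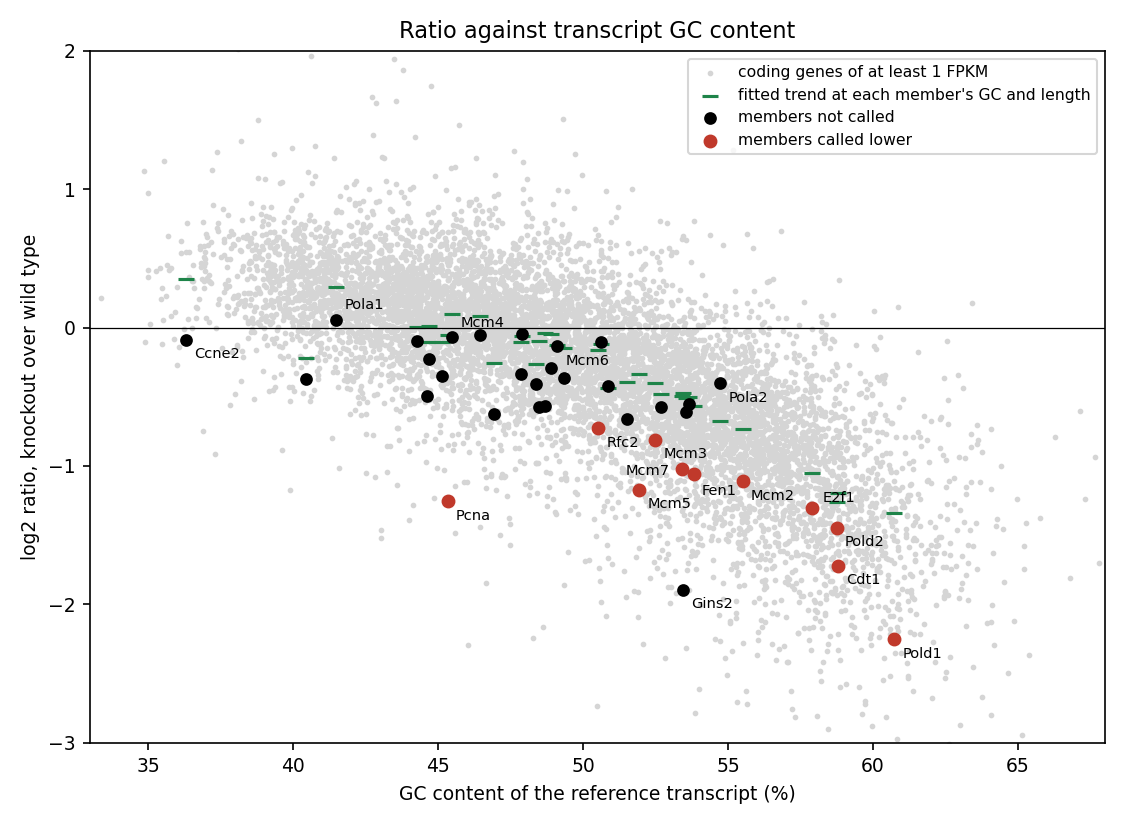
Log2 ratio of knockout over wild type (vertical axis) against GC content of the reference transcript in percent (horizontal axis) for coding genes averaging at least 1 FPKM (small grey points), members called lower (red) and members not called (black); green dashes give the fitted trend at each member's GC content and length. Pcna, at 45.3% GC, lies far below its dash, whereas Pold2 and E2f1 lie close to theirs.

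A smooth trend of the log2 ratio with GC content and transcript length was fitted over the 8987 coding genes and removed. Of the 11 calls, 2 remained, Pcna and Mcm5, where 0.979% of coding genes were called lower and 0.857% higher. The ratio of Pcna was -1.20 after removal (adjusted p = 2.05e-04, using the standard error implied by the authors' statistic), close to the deposited -1.25, and that of Mcm5 was -0.84 (adjusted p = 0.0454). Pold1 went from -2.25 to -0.91 (adjusted p = 0.0940), Cdt1 from -1.72 to -0.53 (0.699), Pold2 from -1.44 to -0.18 (0.992) and E2f1 from -1.30 to -0.25 (0.988), all from the authors' statistic. Mcm2, Mcm3, Mcm7, Fen1 and Rfc2 were at -0.38, -0.41, -0.52, -0.49 and -0.56, with adjusted p from 0.416 to 0.704. Cdc45 was at -0.69 with an adjusted p of 0.293. The direction of the group stayed on the low side: 33 of 37 members were negative after removal, against 49.7% of coding genes, with a median of -0.24 for members and 0.00 for coding genes. The 4 that were not were Pola2 at 0.27 and Pole, Gins3 and Gins4 between 0.01 and 0.02. This was not particular to the members: 15 of 17 mitotic genes were negative too, and 14 of 21 other S-phase genes, with a median of -0.28. In the remaining cell cycle lists, 17 of 30 other fork and origin genes, 11 of 18 checkpoint and repair genes and 4 of 9 G1 genes were negative. Whether the trend with GC content comes from the cells or from the libraries was not tested.

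Sites for the microRNAs of the removed genes were sparse among the members. A match to the seed, TGAATGT or GAATGTA in the 3′ UTR of the reference transcript, was found in 3 of the 40 members (7.5%) and in 22.1% of 8936 coding genes. The UTRs of members were shorter, with a median of 481 bases against 1011. The 3 matches, all that were found among the members, are shown in capitals with their flanks.
Pcna: tgttaacaTGAATGTttctgcttt
Mcm5: caggccctgGAATGTAgatgggtc
Mcm4: ctattcctgGAATGTAttttgtta
Pcna and Mcm5 fell in the knockout and Mcm4 did not pass the test, and a link between a match and the ratio was not tested. Over coding genes the median log2 ratio was 0.07 with a match and -0.35 without, and after removal of the trend 0.05 and -0.02.

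The shares called lower in lists of related cell cycle genes lay on both sides of the 15.3% called lower over all tested models, and calls were made in the lower direction alone in these lists, where 1.79% of all models were called higher. Of 30 other fork and origin genes, 4 fell (13.3%) and none rose, with a median of -0.23. Rnaseh2c, a subunit of the nuclease that removes RNA from DNA, was at 1.53 FPKM in the knockout and 10.7 in wild type. Chtf18, part of an alternative clamp loader, was at 1.27 and 4.84 FPKM, and Timeless, of the fork protection complex, at 6.48 and 11.9. The authors' deposited table gave q = 3.40e-07, 9.01e-07 and 0.0226 for these 3 genes. In this list 13 genes were above wild type, against 1 of the 37 members.
Of 21 other S-phase genes, 5 fell (23.8%) and none rose, with a median of -0.43. E2f2, an activator closely related to E2f1, was far more abundant than it, at 44.2 FPKM in the knockout and 101 in wild type. Mybl2, a regulator of cell cycle genes, was at 3.04 and 6.87 FPKM, and Chaf1b, of the histone chaperone that follows the fork, at 9.47 and 17.3. In the authors' deposited table q was 9.59e-06 for E2f2, 0.00119 for Mybl2 and 0.0198 for Chaf1b.

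The G1 list had 12 tested genes, of which 3 fell (25%) and none rose. Ccnd3, the cyclin D that drives division of immature thymocytes, was at 118 FPKM in the knockout and 355 in wild type. Its kinase partner Cdk4 was at 28.9 and 61.8 FPKM, and E2f4, a factor that mostly represses, at 65.3 and 126. These had q = 1.26e-08, 6.69e-04 and 0.00105 in the authors' deposited table.
Of 18 mitotic genes, 1 (5.56%) fell, Cdc20, the activator of the anaphase-promoting complex, at 21.2 FPKM in the knockout and 43.1 in wild type (the authors' deposited table has q = 0.00700), and the list's median was -0.20. Of 18 checkpoint and repair genes, 1 model (5.56%) fell, counted for Atrip but shared with Trex1, at 8.56 and 18.4 FPKM (the authors' deposited table has q = 0.0313), and the median was 0.08. After removal of the trend, the medians were -0.05 for other fork and origin genes, -0.28 for other S-phase genes, 0.13 for G1, -0.18 for mitosis and -0.05 for checkpoint and repair, with no call in these lists. The difference between these lists and the members was not tested.

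**Figure D5:**
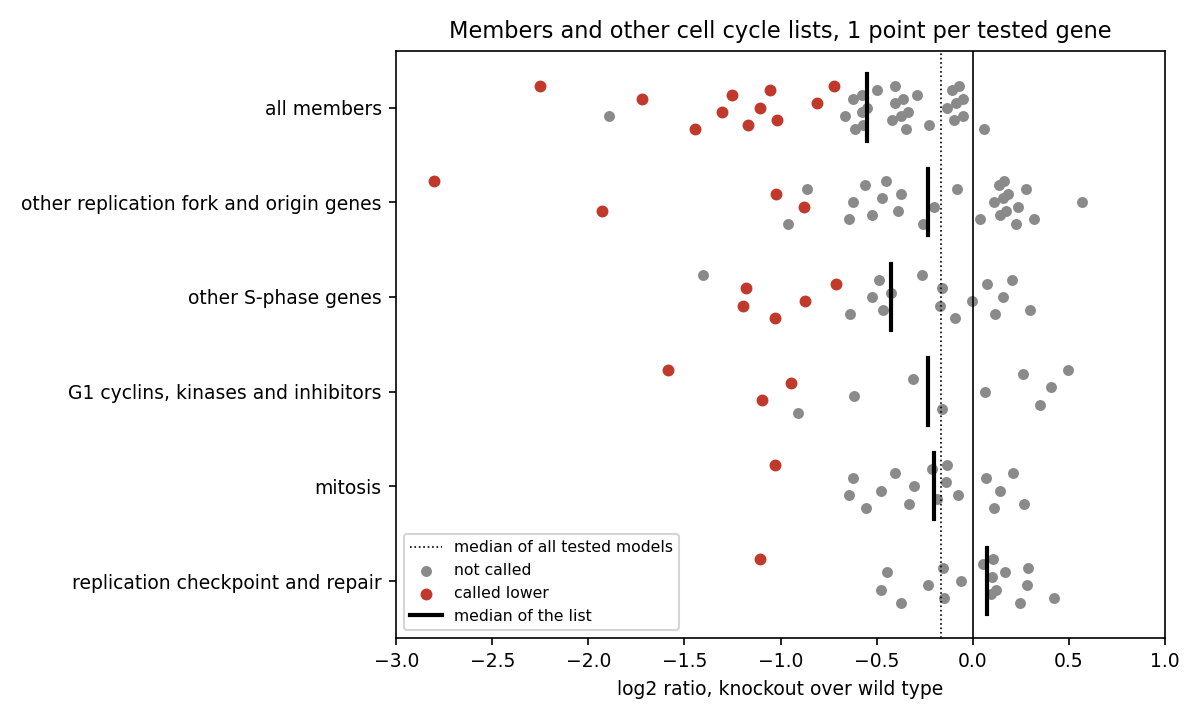
Log2 ratio of knockout over wild type (horizontal axis) for the 37 members and 5 other cell cycle lists, 1 point per tested gene, red where called lower; the black bar is each list's median and the dotted line the median of all tested models. The median lies at -0.55 for the members and between -0.43 and 0.08 for the other lists.

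The 8 markers of the sorted cell summed to 4965 FPKM in the knockout and 5399 in wild type, with no call. Cd8b1 was the highest of them, at 1241 and 1683 FPKM, and Cd1d1 the lowest, at 17.1 and 24.2. Cd4 was at 907 FPKM in the knockout and 732 in wild type, and Cd8a at 836 and 906. Rag1, which cuts the T cell receptor genes for rearrangement, was at 1193 and 1220 FPKM. None of these 3 genes passed the test (q = 0.423, 0.828 and 0.979 in the authors' deposited table). Of 8 markers of the CD4-CD8- stage, 6 were tested, and 1 was called in each direction. Il2ra, a subunit of the interleukin-2 receptor, rose from 2.89 FPKM in wild type to 29.4 in the knockout, and Ptcra, a part of the pre-T cell receptor, fell from 26.1 to 9.59. With the trend on GC content and length taken out, Il2ra stayed at a log2 ratio of 3.18 and called higher, whereas the calls of Ptcra (-0.41) and of the epithelial marker Epcam (-0.82) were lost, with adjusted p of 0.776 and 0.419. The CD4-CD8- list summed to 44.4 FPKM in the knockout and 33.9 in wild type. Il2ra made up 29.4 and 2.89 FPKM of these sums and Ptcra 9.59 and 26.1, so the higher knockout sum rests on Il2ra. Summed levels of B cell markers were 16.04 and 20.5 FPKM, nearly all of it Cd79b, and those of macrophage markers 3.38 and 6.89, with C1qb called lower. C1qb was at 0.355 FPKM in the knockout and 1.48 in wild type. It averaged under 1 FPKM, so it was not in the trend fit and has no ratio after removal. Thymic epithelial markers summed to 3.94 and 5.44 FPKM with Epcam called lower, erythroid markers to 0.670 and 1.39, and dendritic cell markers to 0.327 and 0.720. Klf1 and Foxn1 were listed at 0 in the knockout and at only 0.040 and 0.0099 FPKM in wild type, and neither was tested. The part of cell composition in the levels of the replication genes was not tested.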

How the data were processed

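RNA of 6 libraries of sorted thymocytes was compared by genotype as labelled. The submitters' processing notes name TopHat2 and the build mm9; the sources used here do not give the counting and testing tool or its annotation. Per the labels' protocols, RNA came from Trizol or a column kit, without saying which for which library. The authors deposited 1 FPKM value per genotype, which scales by depth and length but not base composition, with a log2 ratio, a statistic, a p-value and a q-value. The deposited q-values equal Benjamini-Hochberg adjusted p-values over 13834 tested models (largest difference 1.89e-06). Without values of single libraries, depth is unknown and no test over libraries was run; precision comes from the deposited statistic.

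Ratios were turned to knockout over wild type. A robust fit (statsmodels 0.14.6, cubic splines with 5 degrees of freedom each for GC content and log2 length, GENCODE M21 transcripts) gave the trend. Residuals over the implied standard error were adjusted by Benjamini-Hochberg. These steps were tested on simulated ratios built on the fitted trend itself. The planted changes were larger than the deposited change of every called member except Pold1, so smaller changes were not covered. Intervals assume a normal statistic. The alternatives were thresholds of 0.01 and 0.1, centring, removal of the trend, pseudocounts of 1 and 0.1, a minimum mean of 1 FPKM, and the choice among models of a symbol. All members are given by role. From other lists, up to 3 called genes per direction with the smallest p are named. The members and lists were chosen with earlier results of these data known.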

Additional observations from a re-analysis of the deposited data

How the results depend on the processing

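No paired analysis was possible because the table holds 1 value per genotype, and for the same reason leaving out each library in turn was not run. The 11 lower calls became 10 at q under 0.01, 11 at q under 0.1, 9 after centring, and 12 with the older symbols, the last chosen after seeing the data; none of these, nor removal of the trend, gave a higher call. With the GC and length trend removed 2 lower calls were left, and with a trend on GC content alone, chosen after seeing the data, 1. The median log2 ratio of -0.55 became -0.38 after centring, -0.24 with the trend removed and -0.31 with GC content alone, and was -0.50 with a pseudocount of 1.

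Members whose sign turned, none of them called, were, after centring, Mcm4 (0.10), Mcm6 (0.031), Rfc1 (0.11), Prim1 (0.067), Pole (0.058), Gins3 (0.12) and Ccne2 (0.078). With the GC and length trend removed they were Pola1 (-0.23), Pola2 (0.27), Pole (0.012), Gins3 (0.014) and Gins4 (0.015). With GC content alone they were Mcm6 (0.011), Pola1 (-0.19), Pola2 (0.30), Pole (0.16), Gins3 (0.011) and Uhrf1 (0.022). The cause was not tested.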
